A study of Mus musculus with 15 samples.

Results

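The 8 genes described here, Myh1, Myh2, Myh3, Myh4, Myh6, Myh7, Myh8 and Myh13, encode sarcomeric myosin heavy chains of skeletal and cardiac muscle. They were taken by symbol from the 23420 mouse genes of the deposited tables, and all 8 were found. The libraries came from tongue and epidermis of mice at postnatal day 1. They were 4 of tongue from mice labelled Tmprss11a,b,c,d,e,f,g-/-, 4 of tongue from wild-type mice, 4 of epidermis from mice of that knockout genotype and 3 of epidermis from wild-type mice. By the labels, the knockout (KO) mice had all 7 protease genes of the HAT/DESC family disrupted by multiplexed gene editing, and the wild-type (WT) mice carry the same strain entry in the labels. By the numbers in the labels, the libraries came from 9 animals, of which 4 KO and 2 WT animals gave both tissues. The numbers begin with A32, A34 or A38 (A32x, A34x and A38x below), and what such a range stands for is not in the labels.

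A myosin heavy chain is the motor protein of the thick filament: its head binds actin and splits ATP, and its tail packs into the filament shaft. Muscle fibres build their filaments from several isoforms with different speeds. In rodents the embryonic chain (Myh3) and the perinatal chain (Myh8) predominate in developing limb muscle and are replaced after birth by the adult fast chains IIA (Myh2), IIX (Myh1) and IIB (Myh4), or by the slow chain (Myh7), which is also the beta chain of the heart. Myh6 encodes the alpha chain of the heart, and Myh13 a chain best known from the muscles of the eye and larynx. The body of the tongue is mostly skeletal muscle, and in adult rodents it is made largely of fast fibres.

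Of the genes, 6 lie in 1 cluster on the plus strand of chromosome 11 (GRCm38), in the order Myh3 (chr11:67078300-67102291), Myh2 (chr11:67171027-67197517), Myh1 (chr11:67200052-67224575), Myh4 (chr11:67238029-67260446), Myh8 (chr11:67277124-67308634) and Myh13 (chr11:67321658-67371586). Myh6 (chr14:54941921-54966927) and Myh7 (chr14:54970684-54994626) are neighbours on the minus strand of chromosome 14. The coordinates span each whole gene, exons and introns, in GENCODE M21. The files identify them, in the order given, as ENSMUSG00000020908, ENSMUSG00000033196, ENSMUSG00000056328, ENSMUSG00000057003, ENSMUSG00000055775, ENSMUSG00000060180, ENSMUSG00000040752 and ENSMUSG00000053093. The genes are close copies of each other. On either strand, 40.0% of the 37-base words of the longest Myh1 transcript also occur in another gene, as do 36.3% of those of Myh2, 34.9% of Myh7, 28.8% of Myh6, 28.1% of Myh8, 25.9% of Myh4, 11.6% of Myh13 and 8.34% of Myh3. These values include antisense genes over the same locus, such as Myhas with 7.39% of the Myh1 words and Gm31251 with 5.67% of the Myh7 words. Between the copies themselves, Myh2 holds 24.9% of the Myh1 words and Myh6 28.2% of the Myh7 words. The longest stretch that Myh1 and Myh2 share is 268 bases, and Myh6 and Myh7 share 245. The rule by which reads from such stretches were assigned is unknown, so the split of reads between these genes is uncertain. This holds beyond the closest pairs. Myh8 had the most reads in tongue. Of its 37-base words, 16.4% also occur in Myh2, 14.0% in Myh1, 12.9% in Myh4 and 7.10% in Myh13. Its longest stretch shared with Myh13 is 213 bases. The part of misassigned Myh8 reads in the levels of the rarer genes, Myh13 among them, was not tested. Antisense genes overlap Myh1, Myh2, Myh6 and Myh7. Of these, Myhas over Myh1, 9430073C21Rik over Myh2 and Mhrt over Myh7 held 56, 34 and 1 reads over all libraries, and without strand their reads and those of the Myh genes cannot be told apart.

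The start regions of the most abundant isoforms are shown because the perinatal gene and the 3 fast genes, which lie next to each other, share sequence there that the embryonic gene lacks. Each is the RefSeq window (GRCm38.p6) of 250 bases before to 50 bases after the gene's start, 5′ to 3′ on the plus strand: Myh8 at chr11:67276874-67277173, Myh1 at chr11:67199852-67200151, Myh2 at chr11:67170777-67171076, Myh4 at chr11:67237562-67237861 and Myh3 at chr11:67078050-67078349. Capitals mark the shared words TCAAATTAT and TTCTAATTATATCC and the TATA motif TATAAA on this strand.
Myh8: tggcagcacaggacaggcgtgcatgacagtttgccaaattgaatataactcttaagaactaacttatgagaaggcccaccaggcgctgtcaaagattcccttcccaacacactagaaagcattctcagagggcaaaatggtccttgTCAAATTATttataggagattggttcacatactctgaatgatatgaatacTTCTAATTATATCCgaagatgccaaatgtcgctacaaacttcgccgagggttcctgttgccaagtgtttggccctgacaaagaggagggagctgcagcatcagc
Myh1: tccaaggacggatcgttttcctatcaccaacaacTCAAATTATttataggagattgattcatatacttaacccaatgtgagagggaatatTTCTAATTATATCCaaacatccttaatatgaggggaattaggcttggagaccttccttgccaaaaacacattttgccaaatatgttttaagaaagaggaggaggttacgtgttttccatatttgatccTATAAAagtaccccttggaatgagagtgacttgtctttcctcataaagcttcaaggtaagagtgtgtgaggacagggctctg
Myh2: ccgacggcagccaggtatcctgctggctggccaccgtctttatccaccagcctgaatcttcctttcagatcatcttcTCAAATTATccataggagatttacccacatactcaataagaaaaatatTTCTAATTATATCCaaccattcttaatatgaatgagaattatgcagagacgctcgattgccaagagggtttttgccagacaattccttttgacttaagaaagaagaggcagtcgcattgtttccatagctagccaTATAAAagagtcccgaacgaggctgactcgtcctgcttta
Myh4: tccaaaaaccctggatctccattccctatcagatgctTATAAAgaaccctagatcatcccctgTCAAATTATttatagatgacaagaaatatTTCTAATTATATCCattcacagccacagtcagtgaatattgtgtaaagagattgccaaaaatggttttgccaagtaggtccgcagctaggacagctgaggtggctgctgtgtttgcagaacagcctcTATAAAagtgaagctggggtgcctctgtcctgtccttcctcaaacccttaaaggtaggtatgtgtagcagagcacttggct
Myh3: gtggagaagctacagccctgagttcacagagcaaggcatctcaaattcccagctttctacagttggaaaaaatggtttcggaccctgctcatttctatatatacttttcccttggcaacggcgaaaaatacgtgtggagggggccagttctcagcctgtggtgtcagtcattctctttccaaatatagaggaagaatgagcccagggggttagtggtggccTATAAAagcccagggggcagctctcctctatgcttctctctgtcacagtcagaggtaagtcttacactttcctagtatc

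The 14-base word TTCTAATTATATCC began 54 bases before the start in Myh8, 160 in Myh1, 125 in Myh2 and 158 in Myh4. On either strand it was found in 4 of the 32851 promoter windows, 0.0122%, and these were the windows of those 4 genes. The 9-base word TCAAATTAT stood upstream of it in each of them and occurred in 59 windows, 0.180%. Neither word was in the windows of Myh3, Myh6, Myh7 or Myh13. The words were picked by comparing these windows with each other, so their sharing is a description. The MEF2 motif, searched by name on both strands, matched Myh1, Myh4 and Myh8, where it overlapped the end of the 9-base word and a TATAAA on the opposite strand, and it matched 3.19% of all windows. TATAAA on either strand occurred in 13.6% of windows, the E-box CANNTG in 72.3%, and the CArG box, which matched Myh4 and Myh13, in 1.63%.

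Counted reads ran from 10117819 to 17819195 per library, and every p-value below reflects only how these samples spread. Data for 6 targeted genes were read, and the remaining one was not analysed here. Their summed level was 141 ± 7.19 CPM in KO tongue and 369 ± 16.0 CPM in WT tongue (SD, n = 4 each), and 2 of them, Tmprss11a and Tmprss11b, passed as lower in KO tongue. In epidermis the sums were 170 ± 59.0 CPM in KO (n = 4) and 265 ± 39.0 CPM in WT (n = 3), and none passed. The KO sum was thus 38.1% of the WT sum in tongue and 64.3% in epidermis, where Tmprss11g averaged 11.05 CPM in KO and 8.26 CPM in WT. CPM is the read count scaled to the library's size, with trimmed mean of M values (TMM) factors over all 15 libraries. Markers of the labelled tissues were present: tongue libraries held 8028 to 13060 CPM of 6 tongue epithelium markers and epidermis libraries 304 to 1266 CPM, while 8 epidermal markers summed to 1311 to 1654 CPM in tongue libraries and 32632 to 62081 CPM in epidermis libraries. The mitochondrial ribosomal RNAs took 44.6% of reads in epidermis WT 1 and at most 23.8% in the other epidermis libraries. In the tongue libraries they took 35.5% to 40.8%.

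In newborn tongue the perinatal chain made up most of the myosin reads. Myh8, divided by transcript length, made up 90.1%, 89.8%, 85.6% and 84.6% of the 8 genes' length-scaled reads in the KO tongues, against 89.6%, 87.6%, 86.8% and 87.7% in the WT tongues. The embryonic and the fast chains made up most of the remainder at similar levels, and the slow chain was close to absent. Together the 8 genes took 0.836% to 1.32% of all counted reads in KO tongue and 0.701% to 1.38% in WT tongue, so the shares rest on 80911 to 234518 reads per tongue library. In bulk tissue, fewer muscle fibres and less RNA per fibre cannot be told apart.

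**Figure D1:**
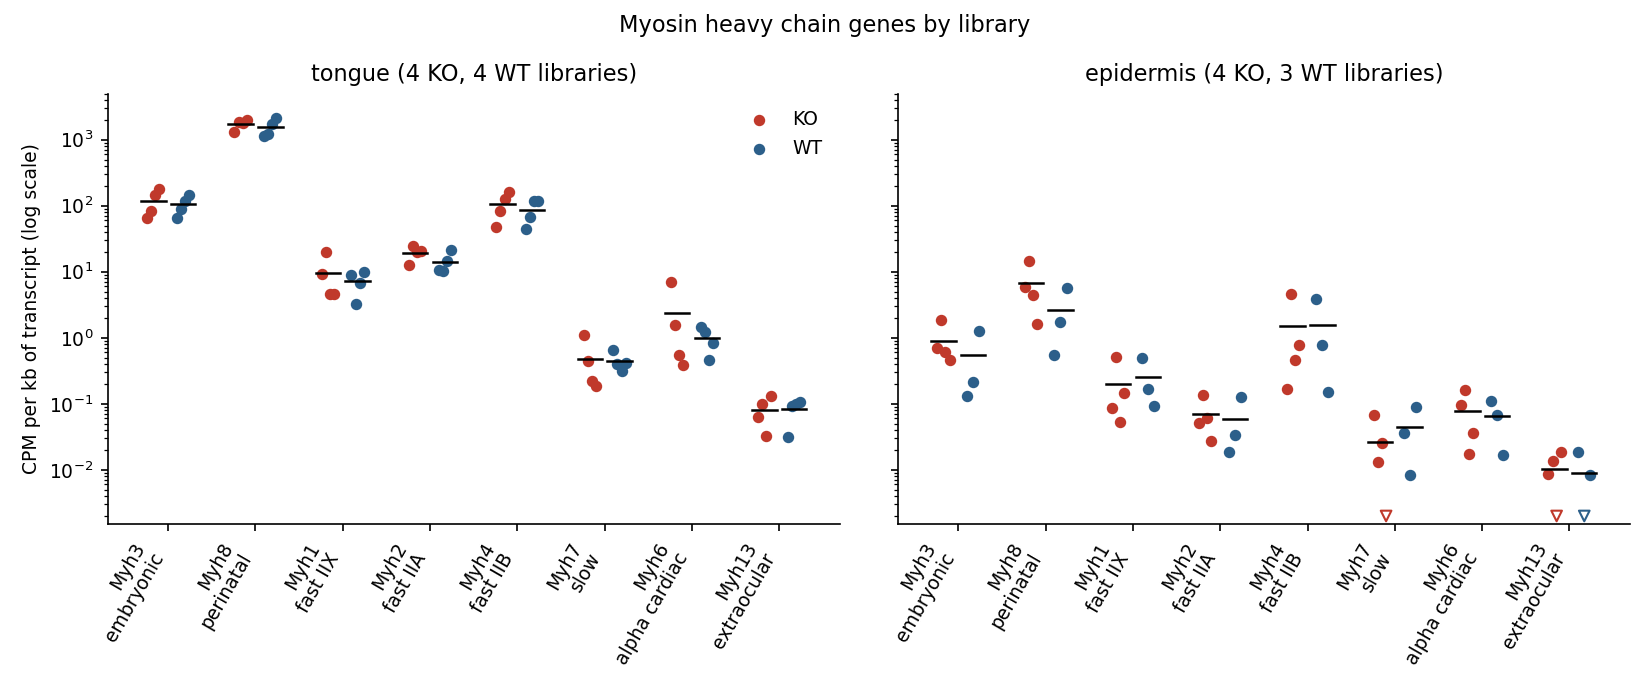
Level of each myosin heavy chain gene in every library, in CPM per kb of transcript on a log axis, for tongue (left) and epidermis (right). Points are libraries, KO left of WT within each gene, bars are group means, and open triangles mark libraries with 0 reads; in tongue Myh8 is the highest gene in every library of both genotypes.

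Myh8, the perinatal chain, was counted at 8092, 11524, 10878 and 12213 CPM in KO tongues 1 to 4 and at 6945, 7417, 10521 and 12984 CPM in WT tongues 1 to 4. The 2 groups overlapped, and the highest and the lowest of the 8 libraries were both wild type. On the per-kb scale its mean level was 1736 ± 294 CPM per kb in KO tongue and 1540 ± 460 CPM per kb in WT tongue (SD, n = 4 each). This was 14.7 times the next gene, Myh3, in either genotype, with the longest protein-coding transcript as the length. The annotated exons of Myh8 together span 11772 bases, against 6149 in that transcript, and by this union length the ratio was 7.74 in KO and 7.72 in WT. The ranges of Myh8 and Myh3 did not overlap by either length, and the order of the 8 genes was the same. KO over WT, the log2 fold change of Myh8 was 0.17 (SE 0.21, 95% interval -0.28 to 0.62, adjusted p = 0.939).

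Myh3, the embryonic chain, reached 398, 500, 873 and 1069 CPM in KO tongues 1 to 4, against 394, 530, 715 and 887 CPM in WT tongues 1 to 4. In both genotypes libraries 3 and 4, whose animals have A38x numbers, were above libraries 1 and 2, and the genotypes overlapped. Its share of the 8 genes was 5.76 ± 1.78% in KO and 5.92 ± 0.518% in WT (SD, n = 4 each), and its log2 fold change was 0.17 (SE 0.34, 95% interval -0.59 to 0.93, adjusted p = 0.953).

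Among the adult fast chains Myh4, the IIB chain, led. It had 291, 502, 771 and 957 CPM in KO tongues 1 to 4 and 268, 407, 717 and 702 CPM in WT tongues 1 to 4, again with libraries 3 and 4 on top in both genotypes. Within the fast class Myh4 made up 76.1 ± 10.6% in KO and 79.1 ± 6.89% in WT (SD, n = 4 each) of the length-scaled reads. Per kb, its ranges overlapped those of Myh3 in KO tongue and in WT tongue. Library by library, Myh4 had 48.4, 83.4, 128 and 159 CPM per kb in KO tongues 1 to 4, where Myh3 had 66.0, 82.9, 145 and 177. In WT tongues 1 to 4 Myh4 had 44.6, 67.7, 119.2 and 116.7, where Myh3 had 65.3, 87.8, 118.6 and 147.0. Myh3 was thus the higher within each library except KO 2 and WT 3, where the levels were nearly equal. This within-library order was not tested. Its log2 fold change, KO over WT, was 0.27 (SE 0.41, 95% interval -0.68 to 1.21, adjusted p = 0.947).

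Myh2, the IIA chain, had 77.9, 148, 122 and 123 CPM in KO tongues 1 to 4, against 65.0, 63.2, 88.4 and 129 CPM in WT tongues 1 to 4. Of the 7 genes tested it had the smallest unadjusted p between genotypes, 0.0965, with a log2 fold change of 0.45 (SE 0.25, 95% interval -0.10 to 0.99), and its adjusted p was 0.939. The groups overlapped: WT 4 was above 3 of the 4 KO libraries.

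Myh1, the IIX chain, was the most uneven of the fast chains. KO tongues 1 to 4 had 56.6, 120, 28.3 and 27.6 CPM and WT tongues 1 to 4 had 54.0, 19.9, 40.7 and 60.8 CPM. KO 2 alone lay above all WT libraries, while KO 3 and KO 4 lay below 3 of the 4. Its log2 fold change was 0.41 (SE 0.56, 95% interval -0.92 to 1.74, adjusted p = 0.942), and without tongue KO 2 it was -0.22. Per kb, Myh2 stood 5.40 times below Myh4 in KO and 6.12 times below it in WT, and Myh1 a further 2.03 times below in KO and 1.97 times below in WT. The ranges of Myh2 and Myh1 did not overlap in WT tongue but did in KO tongue.

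The slow chain Myh7 was rare. KO tongues 1 to 4 held 88, 37, 14 and 19 of its reads and WT tongues 1 to 4 held 42, 31, 26 and 32, which is 0.0081% to 0.0753% of the 8 genes' reads in KO libraries and 0.0160% to 0.0519% in WT libraries. Even the highest, 0.0753% in tongue KO 1, had an exact 95% binomial interval of 0.0604% to 0.0928%, which covers counting error only. Myh7 had the highest value of each genotype in library 1, of the A32x range, and the groups overlapped. Its log2 fold change was 0.14 (SE 0.50, 95% interval -0.97 to 1.25, adjusted p = 0.972), and without tongue KO 1 it was -0.62.

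Myh6, the alpha cardiac chain, had 43.0, 9.47, 3.38 and 2.39 CPM in KO tongues 1 to 4, against 8.99, 7.43, 2.84 and 5.16 CPM in WT tongues 1 to 4. KO 1 was far above the other 7 libraries, and the remaining KO libraries overlapped the WT ones. Its log2 fold change was 1.27 (SE 0.98, 95% interval -1.06 to 3.59, adjusted p = 0.939), and without tongue KO 1 it was -0.25. Per kb, Myh6 exceeded Myh7 in all 8 tongue libraries, by 2.09 to 6.50 times in KO and 1.49 to 3.02 times in WT. Of 10 markers of heart muscle and of its development, 6 were highest in tongue KO 1 among the tongue libraries: Nppa, Nppb, Myl7, Tnni3, Gata4 and Tbx20. Nppa, atrial natriuretic peptide, had 7.83 CPM there and at most 3.28 CPM elsewhere in tongue, and Myl7, the atrial light chain, 14.1 CPM against at most 5.89. Myl7 also reached 9.24 CPM in epidermis KO 4, and it did not pass as higher in tongue than in epidermis in either genotype. Nppb and Gata4 had only 13 and 7 reads in tongue KO 1, and Gata4 was higher in epidermis WT 1, at 1.12 CPM. The ventricular light chain gene Myl2 had 0 reads in KO 1, and 2 tongue libraries were at 0 for it. Hand2, at 5.83 CPM, was lower in KO 1 than in any other tongue library (6.50 to 8.80 CPM), and Nkx2-5 had 1.84 CPM there and 0.895 to 3.98 CPM in the others. The 10 markers summed to 451 to 650 CPM in KO tongues and 451 to 610 CPM in WT tongues, nearly all from Sln, a gene also active in skeletal muscle. Without Sln the sum was 39.7 CPM in KO 1 and 11.1 to 21.2 CPM in the other tongue libraries. The part of heart-derived RNA in the Myh6 value was not tested.

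Myh13 had 5, 8, 2 and 13 reads in KO tongues 1 to 4 and 2, 7, 8 and 8 reads in WT tongues 1 to 4. At a mean of 0.494 CPM in KO and 0.500 CPM in WT it was too low for the test. Per kb the order in tongue was Myh8, Myh3, Myh4, Myh2, Myh1, Myh6, Myh7 and Myh13 in both genotypes. Only Myh3 with Myh4 and Myh6 with Myh7 had overlapping ranges in WT tongue, and in KO tongue Myh2 with Myh1 and Myh1 with Myh6 overlapped as well. These ranges run across libraries. Within every KO tongue library Myh2 was above Myh1 and Myh1 above Myh6.

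The study set mice lacking the proteases against wild type, and no isoform passed that comparison in tongue. Of the 7 genes with enough reads, 0 passed an adjusted p of 0.05 in edgeR's quasi-likelihood test, and 0 had an unadjusted p under 0.05. Over all 15741 genes tested in tongue the share called was 0.0127%. DESeq2 and limma-voom called none of the 7 genes either, where they called 4 and 2 genes in all, against 2 in edgeR. All 7 log2 fold changes were above 0, with a median of 0.27 where the median over all genes was 0.0087. None of the 8 genes had KO and WT tongue libraries that did not overlap, against 2.29% of all genes. The intervals hold changes of over 1.5-fold in either direction for Myh1, Myh3, Myh4, Myh6 and Myh7 and upward for Myh2 and Myh8, so these data do not show that the levels were equal.

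**Figure D2:**
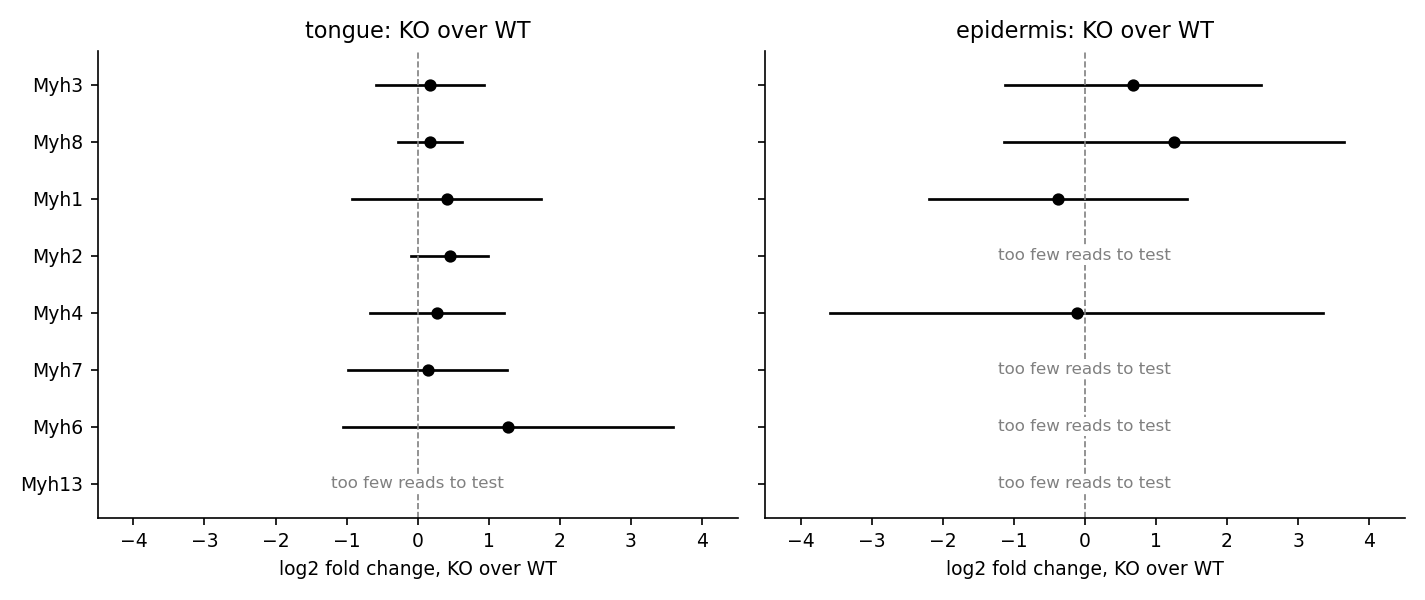
Log2 fold change of each gene, KO over WT, in tongue (left) and epidermis (right), with points for the estimate and lines for its 95% interval in edgeR. Every interval holds 0; in tongue it is narrowest for Myh8, from -0.28 to 0.62, and widest for Myh6, from -1.06 to 3.59.

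The shares of the isoform classes did not separate the genotypes in tongue. The perinatal share was 87.5 ± 2.85% in KO and 87.9 ± 1.17% in WT (SD, n = 4 each; two-sided exact permutation p = 0.886). The fast share was 6.54 ± 1.36% in KO and 6.07 ± 0.837% in WT (exact permutation p = 0.571), the embryonic share 5.76 ± 1.78% in KO and 5.92 ± 0.518% in WT (exact permutation p = 0.857), and the slow share 0.0285 ± 0.0310% in KO and 0.0283 ± 0.0163% in WT (exact permutation p = 1). Adjusted over the 4 shares every p was 1. The smallest p that 4 against 4 libraries allow is 0.0286, and in all 4 classes the groups overlapped. By union exon length, a setting added after seeing the data, the perinatal share was lower, at 78.9 ± 4.46% in KO and 79.4 ± 1.86% in WT, the embryonic share 9.84 ± 2.82% in KO and 10.19 ± 0.816% in WT, and the fast share 10.96 ± 2.12% in KO and 10.24 ± 1.37% in WT (SD, n = 4 each).

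**Figure D3:**
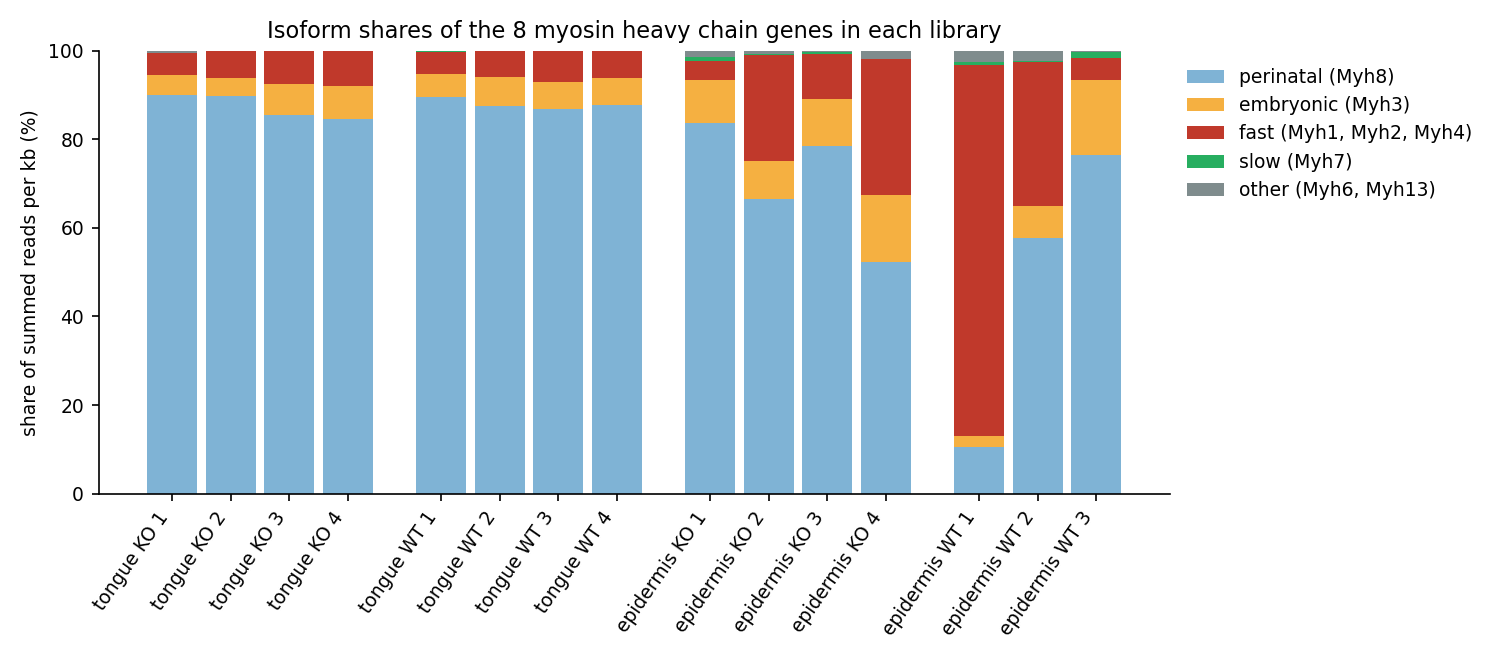
Share of each isoform class in the summed length-scaled reads of the 8 genes, as 1 stacked bar per library, in percent. The 8 tongue libraries have nearly the same mix, with 84.6% to 90.1% perinatal chain; the 7 epidermis libraries vary, down to 10.6% in epidermis WT 1.

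Some isoforms followed the animal number range of the tongue libraries. Over both genotypes, Myh3 averaged 886 ± 145 CPM in the 4 A38x libraries and 455 ± 69.7 CPM in the other 4, and Myh4 787 ± 117 CPM and 367 ± 108 CPM (SD, n = 4 each). For both genes all A38x libraries were above all others, by 1.95 times for Myh3 and 2.14 times for Myh4 on the means. Myh6 was lower in every A38x library, at 3.44 ± 1.22 CPM against 17.2 ± 17.2 CPM. Ranges of the other 5 genes overlapped, Myh8 among them, at 11649 ± 1150 CPM and 8495 ± 2074 CPM. Of all genes tested in tongue, 5.26% had no overlap between the A38x libraries and the rest, and 3 of the 7 tested myosin genes did. The part of the number range in these differences was not tested, and each range holds as many KO as WT tongues. Within the A38x tongues alone, 2 against 2, some log2 fold changes KO over WT were negative. They were -0.023 for Myh8, -0.86 for Myh1, -0.83 for Myh7 and -0.49 for Myh6. Those of Myh2, Myh3 and Myh4 stayed positive, and none of the genes passed.

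**Figure D4:**
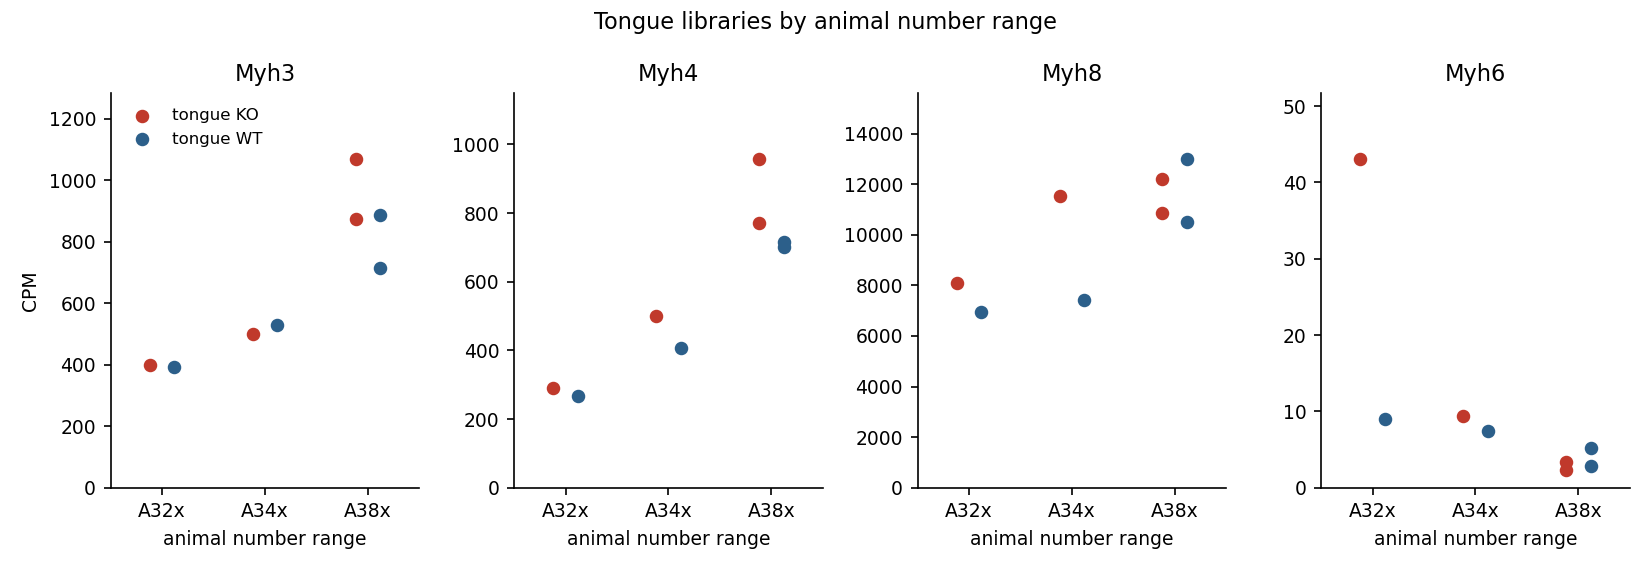
CPM of Myh3, Myh4, Myh8 and Myh6 in the 8 tongue libraries by the animal number range of the labels, on linear axes that start at 0, with KO points left of WT points. Myh3 and Myh4 are higher in all 4 A38x libraries than in the other 4, Myh6 is lower in all 4 A38x libraries and stands at 43.0 CPM in the KO library of range A32x, and Myh8 overlaps.

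Epidermis, which holds no muscle of its own, served as the background. All 8 genes together took 0.0020% to 0.0136% of reads in KO epidermis and 0.0021% to 0.0053% in WT epidermis, 334 to 1608 reads and 279 to 896 reads. Their summed CPM was 212 times higher in KO tongue than in KO epidermis and 338 times higher in WT tongue than in WT epidermis, on the means. Without epidermis KO 2 the KO ratio was 376. Every tongue library was above every epidermis library of its genotype in CPM for all 8 genes. For Myh13 this rested on very few reads. Its highest epidermis count was 2 reads, in epidermis KO 4, and tongue KO 3 and tongue WT 1 also had only 2. The equal counts of tongue KO 3 and epidermis KO 4 came to 0.199 and 0.112 CPM, so library scaling alone set them apart.

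All 7 genes tested passed as higher in tongue in each genotype. These tests took the libraries as independent, although 4 KO and 2 WT animals gave both tissues. With the animal as a block the calls held, but in WT this fit kept only the 2 animals that gave both tissues, both of the A38x range. The other WT libraries were left out of it. In KO mice 31.1% of all genes passed as higher in tongue and 29.9% had every tongue library above every epidermis library, and in WT mice 31.6% passed and 33.9% did not overlap. The log2 fold changes, tongue over epidermis, had a median of 6.16 in KO and 5.82 in WT, where the median over all genes was -0.069 in KO and -0.029 in WT. In KO they ran from 4.02 for Myh7 (SE 0.79, adjusted p = 0.000889) to 8.18 for Myh2 (SE 0.36, adjusted p = 1.01e-08), and in WT from 3.20 for Myh7 (SE 0.61, adjusted p = 0.00141) to 9.14 for Myh8 (SE 0.93, adjusted p = 2.61e-05). Every gene kept its call when any library was left out, but some sizes rested on 1 epidermis library. Without epidermis KO 2, Myh4 was at 7.83 in place of 6.16 in KO, Myh8 at 8.77 in place of 8.03, Myh3 at 7.65 in place of 7.03 and Myh1 at 6.65 in place of 5.70. Without epidermis WT 1, Myh4 was at 7.55 in place of 5.82 in WT and Myh1 at 5.76 in place of 5.01. Without epidermis WT 3, Myh8 was at 10.36 in place of 9.14, Myh3 at 9.16 in place of 7.50, Myh2 at 8.87 in place of 7.68 and Myh7 at 4.502 in place of 3.20. Tongue KO 1 carried part of the KO values of Myh6 and Myh7, which were 3.46 and 3.26 without it, in place of 5.00 and 4.02. Myh1 in KO was at 5.07 without tongue KO 2, and Myh7 in KO at 5.02 without epidermis KO 1. With each KO animal as a block, Myh4 was at 7.03 in KO.

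The mix of the few myosin reads of epidermis varied widely between libraries. The perinatal share was 83.6%, 66.5%, 78.4% and 52.2% in KO epidermis 1 to 4, against 10.6%, 57.7% and 76.5% in WT epidermis 1 to 3. The fast share was 4.26%, 24.1%, 10.2% and 30.9% in KO and 83.7%, 32.6% and 4.97% in WT. Epidermis KO 1 had perinatal and fast shares close to those of tongue, and the fast share of epidermis WT 3 lay within the tongue range. Epidermis WT 1, with 30 reads of Myh8 and 205 of Myh4, had the lowest perinatal and the highest fast share, and Myh4 alone made up 73.8% of its mix. Of the 12 general muscle genes the epidermis libraries held 104 to 675 summed CPM in KO and 107 to 243 summed CPM in WT, with 211 CPM in WT 1. This library also stands apart in its mitochondrial ribosomal reads, and the part of that in its myosin mix was not tested.

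Between genotypes, 4 of the genes had enough reads to test in epidermis, and 0 passed. Myh8 had 36.6, 89.2, 27.5 and 9.85 CPM in KO epidermis 1 to 4 and 3.37, 10.6 and 35.3 CPM in WT epidermis 1 to 3, with a log2 fold change of 1.25 (SE 0.98, 95% interval -1.14 to 3.65, adjusted p = 0.9998). The log2 fold change of Myh3 was 0.68 (SE 0.79), of Myh1 -0.38 (SE 0.81) and of Myh4 -0.11 (SE 1.42), and the groups overlapped for all 8 genes. These sizes rested on single libraries: without epidermis WT 3 Myh8 was at 2.47 and Myh3 at 2.34, and without epidermis KO 2 Myh8 was at 0.56 and Myh3 at 0.093. The share of all 16073 genes that edgeR called was 0%: it called 0 genes, where 187 had an unadjusted p below 0.05, DESeq2 called 1 and limma-voom 0, none of them a myosin gene described here. The knockout effect was then compared between tissues, tongue effect minus epidermis effect. Of the 7 genes tested 0 passed, with log2 differences from -1.12 for Myh8 (SE 0.89) to 0.92 for Myh6 (SE 1.51). The value of Myh8 was -2.33 without epidermis WT 3 and -0.39 without epidermis KO 2. In that test 0% of 17935 genes passed in edgeR, where 299 had an unadjusted p below 0.05, and DESeq2 called 1 and limma-voom 0.

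Other genes of the contractile apparatus and of muscle development gave the setting of the isoforms in tongue. No list had a member past the threshold between KO and WT tongue, so the values that follow are given without a call. Of 12 general muscle genes 12 were tested and 12 had a log2 fold change above 0, with a median of 0.26. Titin, Ttn, averaged 20353 ± 6194 CPM in KO and 17295 ± 5757 CPM in WT, and skeletal alpha-actin, Acta1, 3896 ± 937 CPM in KO and 3075 ± 228 CPM in WT (SD, n = 4 each). Within each genotype the 12 general muscle genes had their lowest sum in KO 1 (21442 CPM) and WT 1 (18932 CPM). These were also the lowest libraries of their genotype for Myh8. Sums of the developing-fibre genes and of the myogenic regulators were lowest in the same libraries. The fast-programme sum was lowest in KO 3, at 12884 CPM, and WT 2, at 12606.5 CPM, and the slow-programme sum in KO 1 and WT 2. The part of muscle content in the myosin values was not tested.

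Of 10 genes of the developing fibre 8 were above 0, with a median of 0.12. Among them cardiac alpha-actin, Actc1, which developing skeletal muscle also makes, averaged 1251 ± 646 CPM in KO and 1204 ± 370 CPM in WT, and the growth factor gene Igf2 2186 ± 335 CPM in KO and 2012 ± 68.2 CPM in WT (SD, n = 4 each). Of 12 genes of the fast programme 8 were above 0 (median 0.080), with the fast regulatory light chain Mylpf at 4509 ± 779 CPM in KO and 4724 ± 492 CPM in WT and fast troponin T, Tnnt3, at 2918 ± 557 CPM in KO and 2854 ± 606 CPM in WT. Of the 7 slow-programme genes tested 2 were above 0 (median -0.065), led by the calsequestrin gene Casq2 at 1008 ± 269 CPM in KO and 1053 ± 114 CPM in WT. The slow and ventricular light chain genes Myl2 and Myl3, which accompany Myh7 in adult slow fibres, stayed at or below 0.323 CPM in all 8 tongue libraries, while slow troponin T, Tnnt1, averaged 53.8 ± 21.6 CPM in KO and 58.7 ± 12.3 CPM in WT. Myl2, Myl3 and Tnnt1 are named here after their values were seen.

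Of 10 myogenic regulators 3 were above 0 (median -0.069), with Mef2c at 447 ± 77.9 CPM in KO and 446 ± 66.7 CPM in WT and myogenin, Myog, at 70.8 ± 5.92 CPM in KO and 78.7 ± 10.7 CPM in WT. All 10 regulators of fibre type were above 0 (median 0.17), with Mef2a at 197 ± 27.4 CPM in KO and 175 ± 9.73 CPM in WT and Tbx15, a factor of fast glycolytic fibres in mice, at 98.0 ± 11.03 CPM in KO and 90.0 ± 3.12 CPM in WT. All 10 cell cycle genes were below 0 (median -0.29), with Mki67 at 134 ± 37.9 CPM in KO and 155 ± 16.4 CPM in WT. Of the 4 nonmuscle and smooth muscle myosin heavy chain genes tested 3 were above 0 (median 0.064), with Myh9 at 164 ± 32.7 CPM in KO and 160 ± 18.9 CPM in WT. The remaining lists had 4 of 6 smooth muscle genes, 4 of 8 epidermal markers, 4 of 6 tongue epithelium markers, 4 of 6 fibroblast markers and 5 of the 6 cardiac markers tested above 0. Their medians were 0.064, -0.023, 0.038, 0.095 and 0.37, in that order.

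Between tissues most muscle lists were higher in tongue, where 31.1% of all genes passed as higher in KO and 31.6% in WT. In KO tongue over KO epidermis, 12 of 12 general muscle genes, 12 of 12 fast genes, 10 of 10 developing-fibre genes and 10 of 10 myogenic regulators passed as higher. The same counts passed in WT. Of the 7 slow genes tested 5 passed as higher in each genotype, and 1 passed as lower in KO. Of the 10 regulators of fibre type 5 passed as higher in each genotype, Tbx15, Ppargc1a, Prox1, Eya1 and Esrrg, and Mef2a passed as lower in WT (log2 fold change -0.43, SE 0.14, edgeR adjusted p = 0.0253). The general muscle genes had a median log2 fold change of 6.84 in KO and 7.45 in WT, and the fast genes 7.87 in KO and 9.18 in WT.

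Genes outside the set whose pattern over the 8 tongue libraries was nearest to an isoform's were found by the root mean square difference of log2(CPM + 1) values centred on each gene's mean. Among the genes nearest to Myh8 were Myom1 (0.075) and Myom2 (0.093), which encode proteins of the M band that tie thick filaments together. Nearest to Myh3 were Actc1 (0.13), Col22a1 (0.17) and Unc45b (0.17), the last a chaperone that folds myosin in muscle. Nearest to Myh4 were the fast myosin-binding protein gene Mybpc2 (0.25), Actc1 (0.27) and Rbfox1 (0.28). Actc1 had 689, 755, 1522 and 2036 CPM in KO tongues 1 to 4 and 815, 980, 1412 and 1611 CPM in WT tongues 1 to 4, high in the A38x libraries like Myh3. Nearest to Myh7 were Anxa3 (0.14), Prex2 (0.16) and Mylk (0.16). These distances describe 8 libraries that share depth and tissue content.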

How the data were processed

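RNA-seq was made from 15 libraries of tongue and epidermis. Per the labels' protocols, RNA was extracted with Trizol, cDNA made with the SMARTer V4 Ultra Low Input kit and libraries with the TruSeq v2 kit. STAR 2.5.2a, GRCm38.p3 and mm10 are named in the submitters' processing notes. The read counter, strand setting and annotation were not given in the sources used here. Deposited by the authors were whole-read counts per gene, on which all tests were run. The deposited signal table holds each count divided by 1 constant per library (checked, spread at most 0.0172%) and was used for symbols.

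Tests were edgeR 4.0.16 (R 4.3.3) quasi-likelihood tests, two-sided, with TMM factors, filterByExpr at a minimum count of 10, a robust fit and Benjamini-Hochberg adjustment over all genes tested, called under 0.05. Tests used TMM factors within a comparison and printed CPM those over all 15 libraries. Per-kb values use the longest protein-coding transcript of GENCODE M21. Shares were tested by exact permutation (SciPy 1.17.1). DESeq2 1.42.0, limma 3.58.1 and the other settings below were alternatives. The test was checked on counts simulated with the same spread setting for every gene. That check does not cover genes that varied more between libraries, Myh6 in KO tongue among them. Library sizes exclude the 2 transgene entries.

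The 8 genes, the 13 lists and the tests were chosen with earlier results of these data known. Besides the 8 genes, a rule took from each list at most 3 genes past the threshold or, with none, at most 2 with the highest mean CPM in tongue. It also took the 3 genes nearest in pattern to Myh3, Myh8, Myh7, Myh4 and Myh6. Not every gene so taken is printed. Beyond the rule, the text names all the cardiac markers and all the regulators of fibre type that passed between tissues. It also names Myl2, Myl3 and Tnnt1 of the slow programme. Replicate numbers of KO tongue and KO epidermis mark the same animals, with correlations of their deviations of 0.063, 0.23, -0.19 and 0.16. For precision, the depth of 10117819 to 17819195 reads puts 3 counts at 0.154 to 0.337 CPM.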

Additional observations from a re-analysis of the deposited data

Results flagged for a closer look

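Myh6 made up 0.482% of the 8 genes' length-scaled reads in tongue KO 1, apart from the other 3 KO tongues, which had 0.0167% to 0.0742%. The gap took 0.876 of the range, past Dixon's critical value for 4 libraries. Epidermis KO 2 stood apart from the other KO epidermis libraries with 27.8 CPM of Myh4 (gap 0.864 of the range) and with 11.2 CPM of Myh3 (gap 0.834). Chance flags about 1 in 20 groups, and 48 groups were looked at. That library also had the most general muscle reads of the epidermis, 675 summed CPM, where the other 6 had 104 to 243.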

How the results depend on the processing

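All 7 genes tested passed as higher in tongue in both genotypes under every setting run, with adjusted p of at most 0.0206, and no setting gave a myosin gene past the threshold between KO and WT, where the smallest adjusted p was 0.218. Of the values of single genes under other settings, 548 kept direction and side, and 34 changed sign. All 34 were knockout effects or their difference between tissues. The 548 include the tongue over epidermis values, none of which changed sign. The knockout directions below are therefore not firm, and the cause was not tested.

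The count of all genes called in tongue was 4 with DESeq2 and 15 in the A38x libraries alone, against 2. In epidermis, against 0, it was 1 with DESeq2, 604 in the A38x libraries, 1 with the number range as a block and 1 with all 15 libraries in one fit. For the difference between tissues, against 0, it was 1 with DESeq2, 19 in the A38x libraries and 0 to 1 leaving out a library.

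Log2 fold changes that turned sign in the A38x libraries were, in tongue, Myh8 -0.023, Myh7 -0.83, Myh1 -0.86 and Myh6 -0.49, and in epidermis Myh3 -0.48, Myh8 -0.30 and Myh4 0.42. For the difference they were Myh3 0.77, Myh8 0.29, Myh1 -0.45 and Myh4 -0.12, and for the shares, in percentage points, embryonic 1.21 and slow -0.00712. With limma-voom Myh7 in tongue was -0.17 and Myh4 in epidermis 0.039. With the number range as a block Myh7 in tongue was -0.071. With the replicate block Myh7 in tongue was -0.076 and Myh4 in epidermis 0.35. With the animal as a block, using only animals that gave both tissues, the difference was -0.18 for Myh1 and -1.17 for Myh4. The replicate block changed no call of a myosin gene and gave 2 genes in tongue, 0 in epidermis and 0 for the difference. Same-numbered KO and WT tongues had correlations of deviations of 0.58, 0.12, -0.16 and 0.23, and only pair 1 of them correlated best with its own number. They also share an animal number range, whose meaning the labels do not give, and since not every correlation was above 0.1 they were not treated as pairs.

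Leaving out 1 library gave in tongue -0.088 to 0.38 for Myh3, -0.62 to 0.43 for Myh7, -0.22 to 0.64 for Myh1 and -0.25 to 1.63 for Myh6. In epidermis it gave -1.34 to 0.50 for Myh1 and -1.76 to 1.63 for Myh4, the low ends without epidermis KO 2 and the high ends without epidermis WT 1, and 0.56 to 2.47 for Myh8 and 0.093 to 2.34 for Myh3. For the difference it gave -0.034 to 1.61 for Myh1, -0.68 to 0.94 for Myh2, -2.12 to 0.13 for Myh3, -1.38 to 1.94 for Myh4, -0.59 to 1.46 for Myh6, -0.42 to 1.84 for Myh7 and -2.33 to -0.39 for Myh8. In percentage points it gave -0.754 to 0.438 for the embryonic, -1.26 to 0.574 for the perinatal and -0.0150 to 0.00781 for the slow share. Union exon length and the tissue ratios of summed CPM without a library were added after seeing the data. By union length Myh8 over Myh3 was 7.74 in KO and 7.72 in WT tongue, against 14.7. Depth limits Myh13, and Myh2, Myh6 and Myh7 in epidermis.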

Other observations

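The genes nearest in pattern to Myh6 over the 8 tongue libraries were Msln (0.46 on the centred log2 scale), Ctsh (0.52) and Lyz2 (0.52), out of 94 genes variable enough to compare. All 3 had their highest value of each genotype in library 1, as Myh6 did. Msln had 32.2, 6.48, 2.98 and 3.13 CPM in KO tongues 1 to 4 and 20.1, 7.83, 3.73 and 5.003 CPM in WT tongues 1 to 4. Ctsh had 64.2 CPM in tongue KO 1 and 43.9 CPM in tongue WT 1, and 8.06 to 18.3 CPM in the other 6.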
